A study of Mus musculus with 18 samples.

Results

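Double-positive thymocytes without recombinase transcripts were described here: cells that carried both the CD4 and the CD8A protein and in which no Rag1 or Rag2 molecule was counted. Each cell's antibody count was scaled to the median antibody total of all cells, 4457 counts, and written as v, the log2 of 1 plus the scaled count. A cell was kept when v was above 6.3 for CD4 and above 6.1 for CD8A and its summed unique molecular identifiers (UMIs, one per captured RNA molecule) for Rag1 and Rag2 were 0. Of the 1331 cells in the data, 187 passed both antibody thresholds, and 121 of these had no Rag UMI, which is 9.09% of all cells and 64.7% of the double positives. The other 66 double positives had at least 1 Rag UMI and are called Rag-expressing below.

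In the thymus, precursors that have rearranged the T cell receptor beta chain become CD4+CD8+ double positives, and these use the RAG1 and RAG2 recombinase to assemble an alpha chain. A receptor that binds self peptide on MHC with sufficient affinity delivers a signal in the cortex, after which recombinase transcription stops, CD5 and CD69 rise, and the cell moves towards the CD4 or the CD8 lineage. Cells that receive no such signal die in the cortex, and cells that bind antigen too strongly can be deleted or diverted. Double positives that have switched off the Rag genes therefore include cells between the first receptor signal and the loss of one coreceptor.

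The cells came from 6 chimeric mice, and 3 libraries (transcripts, antibody tags and T cell receptors) were made for each of them. Donor marrow was OT1 or OT2, transgenic receptors that recognise ovalbumin on MHC class I and on MHC class II respectively, carried on CD45.1.2 cells. It made up 30% of each graft, beside 70% CD45.1 B6 competitor marrow, in a recipient that was either wild type C57BL/6NCr (PosSelected), RIPmOVA (NegSelected) or deficient in the presenting molecule (NoSelection). RIPmOVA (line 296Wehi) is a C57BL/6 transgenic that carries membrane-bound ovalbumin under the rat insulin promoter, Tg(Ins2-TFRC/OVA). The NoSelection host, on B6.Ly5.1/Ncr, was b2m KO for OT1, whereas for OT2 the labels gave MHCII KO in one field and b2m KO in another. Thymi were taken 6 weeks after the transplant at 14 weeks of age, all mice being labelled female. CD44lo CD45.1.2+ Va2+ Vb5+ cells were sorted, a gate on the donor allotype and the transgenic receptor chains. Each combination of receptor and host was 1 mouse, and all mice were tagged with hashtags and pooled in 1 10x Genomics 5' run.

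The gate rested on a pair of oligonucleotide-tagged antibodies, whose tags are shown because every cell below was chosen by counting them. Each tag is printed 5′ to 3′ in capitals throughout, since the whole tag is read.
CD4: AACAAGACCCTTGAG
CD8A: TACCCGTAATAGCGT

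Rag-negative double positives were found in all 6 mice, but in unequal numbers. Among OT1 mice there were 13 of 15 double positives in the NoSelection host, 24 of 24 in the PosSelected host and 7 of 8 in the NegSelected host. Among OT2 mice there were 6 of 45 in the NoSelection host, 24 of 29 in the PosSelected host and 47 of 66 in the NegSelected host. The Rag-negative share of double positives was thus 86.7%, 100% and 87.5% in the OT1 mice and 13.3% (95% Clopper-Pearson interval 5.05% to 26.8%), 82.8% (64.2% to 94.2%) and 71.2% (58.7% to 81.7%) in the OT2 mice. The OT2 NoSelection mouse was low and its interval did not overlap that of any other mouse. These intervals cover counting error only, and with 1 mouse for each receptor and host no test between single mice was possible. As a share of all sorted cells of the mouse, Rag-negative double positives made up 4.25%, 8.51% and 3.43% in OT1 NoSelection, PosSelected and NegSelected, and 5.56%, 9.45% and 26.6% in OT2 in the same order.

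**Figure D1:**
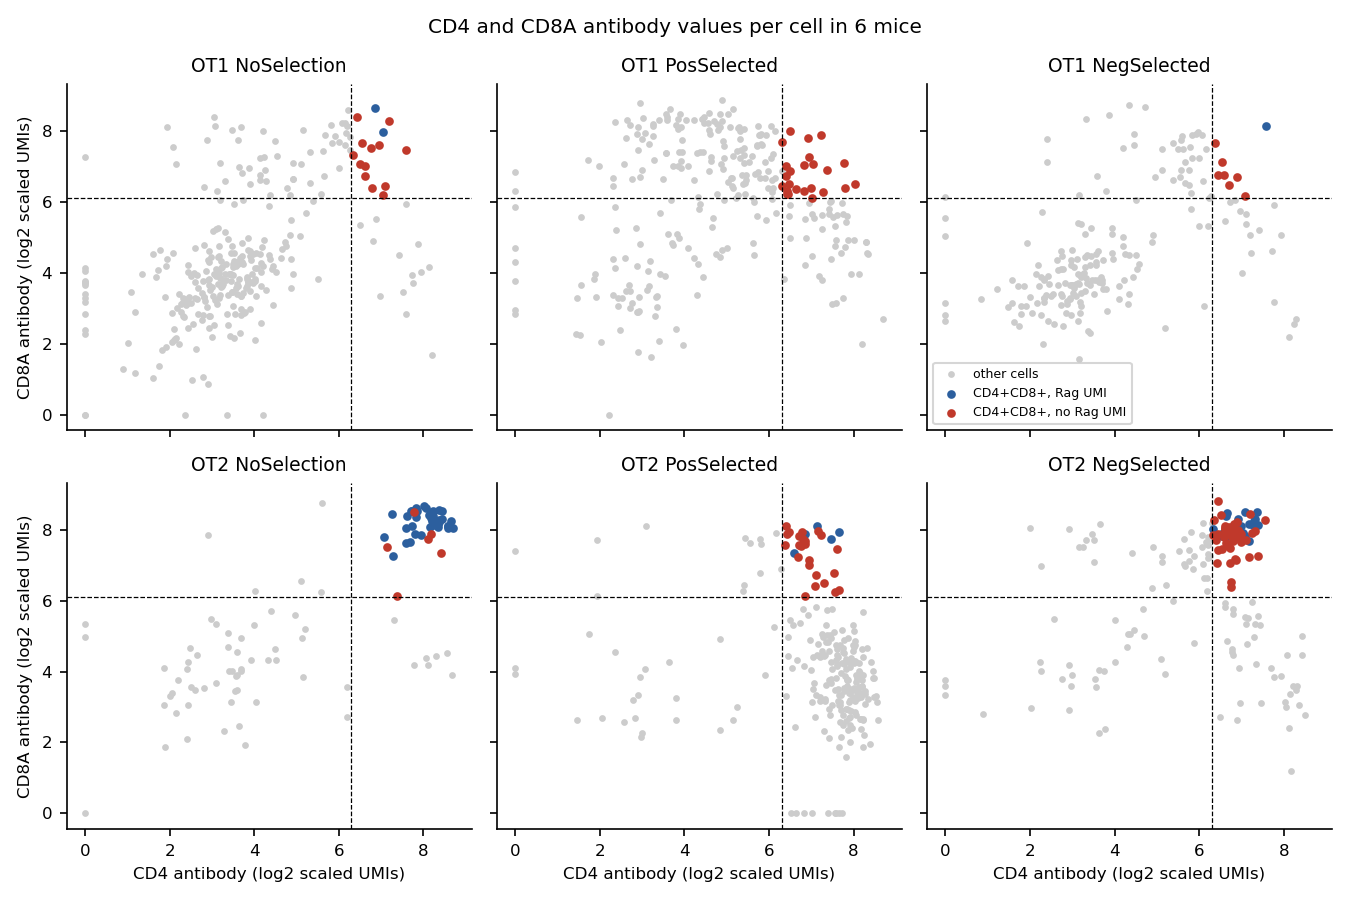
Scaled antibody counts (v, log2 scale) for CD4 on the horizontal axis and CD8A on the vertical axis, 1 panel per mouse and 1 point per cell. Dashed lines mark the thresholds of 6.3 and 6.1, red points are double positives with no Rag UMI, blue points those with a Rag UMI and grey points all other cells. Of the 66 blue points, 63 lie in the OT2 panels.

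Absence of a Rag UMI depends on depth. Rag-negative double positives had a median of 2669 RNA UMIs and Rag-expressing ones 2038.5, so the Rag-negative cells were the deeper class over all mice, although in OT2 NoSelection they were shallower, at 1728.5 against 1922. Among the Rag-expressing cells the median Rag UMI sum was 3 and the highest 13, and 18 of the 66 had exactly 1, so a Rag-negative cell and one whose few Rag molecules were not captured cannot be told apart. When each double positive was thinned to 2000 RNA UMIs and shallower cells were left out, the Rag-negative share was 90%, 100% and 87.5% in OT1 NoSelection, PosSelected and NegSelected, and 6%, 85.2% and 75.9% in OT2. This left out 5, 3 and 0 double positives in the OT1 mice and 25, 6 and 27 in the OT2 mice. The order of the OT2 hosts was the same before and after thinning. Cells outside the gate gave the background: a Rag UMI was seen in 1 of 310 CD4+CD8- cells (0.323%), in 8 of 283 CD4-CD8+ cells (2.83%) and in 6 of 551 CD4-CD8- cells (1.09%), whose median depths were 3190.5, 5184 and 5230 UMIs, against 35.3% of double positives at 2445 UMIs.

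The antibody gate was close to many of its cells. The lowest v among the Rag-negative double positives was 6.32 for CD4 and 6.11 for CD8A, and the highest v of a Rag-negative cell that missed a single threshold was 6.297 for CD4 and 6.06 for CD8A. In all, 74 of the 121 cells lay within 0.5 of a threshold, namely 10, 17 and 6 in OT1 NoSelection, PosSelected and NegSelected and 1, 14 and 26 in OT2. The median v of CD8A was 7.33, 6.61 and 6.77 in the OT1 mice and 7.63, 7.54 and 7.86 in the OT2 mice. The median v of CD4 was 6.76, 6.84 and 6.59 in the OT1 mice and 7.95, 6.86 and 6.76 in the OT2 mice. OT1 cells in the PosSelected and NegSelected hosts therefore sat nearest the CD8A limit, and 5 of the 6 OT2 NoSelection cells lay more than 0.5 above both limits, the lowest of the 6 having a CD8A v of 6.14.

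The median depth of a Rag-negative double positive was 3064, 4825 and 4086 RNA UMIs in OT1 NoSelection, PosSelected and NegSelected, and 1728.5, 2654.5 and 2319 in OT2. Summed over cells this gave 53895, 111960 and 26509 UMIs per OT1 mouse and 12034, 69314 and 107797 per OT2 mouse, the basis of all levels below, which are in counts per 1000000 UMIs (CPM) of the class and mouse. No cell barcode occurred more than once. Only 1 Rag-negative double positive, in OT2 PosSelected, exceeded the 95th percentile of RNA UMIs among all cells of its own mouse. Markers of other cells were scarce: of the listed genes, 5 of 5 erythroid, 4 of 6 B cell, 4 of 6 thymic epithelial, 4 of 8 myeloid, and 4 of 8 NK and innate-like genes had no UMI in any mouse. The summed level ranged from 83.1 to 151 CPM for the myeloid list, 0 to 130 CPM for the NK and innate-like list, 0 to 75.4 CPM for the epithelial list, 0 to 83.5 CPM for the regulatory T cell list and 0 to 18.6 CPM for the B cell list. The gamma delta list summed to 113 to 339 CPM, with 3 of its 7 genes at 0 in every mouse.

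The name post-signal was checked against 5 markers proposed for these cells with results of these data known, so their levels describe the cells and are no independent support. Itm2a encodes a membrane protein induced on double positives by selecting signals, Cd5 an inhibitory receptor whose level follows the strength of the receptor signal, Cd28 a costimulatory receptor, Chl1 a cell adhesion molecule and Lmo4 a LIM-domain cofactor. Since 39 of the 66 Rag-expressing cells came from OT2 NoSelection and 44 of the Rag-negative cells from OT1, shares of cells with a UMI were compared within the OT2 mice. Itm2a was detected in 16.7%, 79.2% and 61.7% of Rag-negative cells of OT2 NoSelection, PosSelected and NegSelected, against 5.13%, 40% and 26.3% of Rag-expressing cells. For Cd5 the shares were 16.7%, 70.8% and 74.5% against 10.3%, 40% and 57.9%. Both genes were detected in a larger share of the Rag-negative cells of each mouse, but the OT2 NoSelection values rest on 1 of 6 cells. After each cell was thinned to 1000 UMIs the Itm2a shares were 0%, 66.7% and 48.8% against 5.56%, 0% and 5.56%, and the Cd5 shares 0%, 54.2% and 60.5% against 5.56%, 0% and 44.4%. The order then held in OT2 PosSelected and NegSelected and not in OT2 NoSelection, and thinning left out 4 Rag-negative and 4 Rag-expressing cells of all mice. Before thinning Cd28 showed no such order, with 16.7%, 87.5% and 61.7% against 33.3%, 80% and 68.4%. After thinning the Cd28 shares were 16.7%, 50% and 44.2% against 16.7%, 20% and 33.3%. The order then held for Cd28 in OT2 PosSelected and NegSelected as well. Lmo4 showed no such order before thinning, with 0%, 45.8% and 31.9% against 7.69%, 20% and 31.6%. Chl1 was detected in 0%, 16.7% and 12.8% of Rag-negative cells and in no Rag-expressing cell. At least 3 of the 5 markers were detected in 0 of 6, 16 of 24 and 22 of 47 Rag-negative cells, against 0 of 39, 2 of 5 and 6 of 19 Rag-expressing cells. In the OT1 mice the count was 7 of 13, 15 of 24 and 6 of 7 Rag-negative cells for NoSelection, PosSelected and NegSelected.

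The OT2 NoSelection mouse went against the name. Of its 6 Rag-negative double positives, 4 had none of the 5 markers and none had 3 or more, and the whole group held 1 Itm2a UMI. These cells met the rule and not the name post-signal, and are called Rag-negative double positives only. In the other 5 mice the 5 markers together summed to 1521 to 4602 CPM, against 332 CPM in this mouse. Rag-expressing cells summed to 311, 1041 and 1296 CPM in OT2 NoSelection, PosSelected and NegSelected. In OT1 they summed to 1627 CPM in NoSelection (9 UMIs) and 602 CPM in NegSelected (2 UMIs). The sum therefore did not set the Rag-negative cells of OT1 NoSelection, at 1521 CPM, above the Rag-expressing cells of that mouse.

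Transcripts of the preselection stage overlapped with Itm2a in single cells. Arpp21, which encodes a cyclic-AMP-regulated RNA-binding phosphoprotein, and Dntt, which encodes terminal transferase, the enzyme that adds nucleotides at receptor gene junctions, are abundant before selection. Of the 121 Rag-negative cells, 44 had Itm2a with neither Arpp21 nor Dntt, 38 had Itm2a with at least 1 of them, 30 had Arpp21 or Dntt without Itm2a and 9 had none. Of the 66 Rag-expressing cells, the same counts were 0, 11, 53 and 2. Over all mice, cells with Itm2a alone were therefore seen among the Rag-negative cells and not among the Rag-expressing cells. There 0 of 66 allows up to 4.55% of cells with that pattern of UMIs (3 counts, counting error only), which limits detection and not expression, since transcripts drop out at this depth. That limit pools mice, and 39 of the 66 cells came from OT2 NoSelection. In OT2 PosSelected and NegSelected alone, 0 of 5 and 0 of 19 Rag-expressing cells allow up to 60% and 15.8%. Itm2a without Arpp21 or Dntt was seen in 6 of 13, 14 of 24 and 5 of 7 cells in OT1 NoSelection, PosSelected and NegSelected, and in 1 of 6, 8 of 24 and 10 of 47 in OT2. Cells with both kinds of transcript numbered 2, 5 and 1 in the OT1 mice and 0, 11 and 19 in the OT2 mice.

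**Figure D2:**
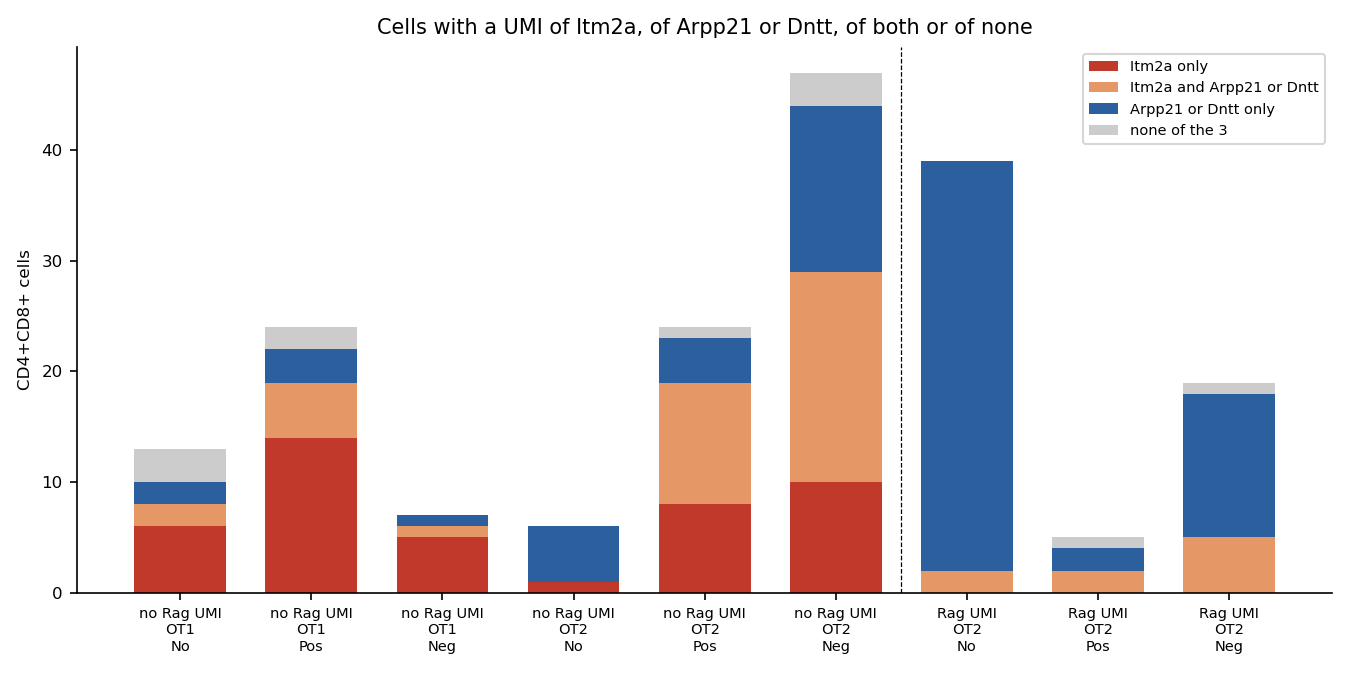
Number of cells (vertical axis) in which Itm2a alone, Itm2a with Arpp21 or Dntt, Arpp21 or Dntt alone, or none of these was detected, stacked for the Rag-negative double positives of each of the 6 mice and the Rag-expressing double positives of the 3 OT2 mice. The 38 Rag-negative cells with both kinds of transcript came mostly from OT2 PosSelected and NegSelected, with 11 and 19 cells, and the Rag-expressing bars hold no cell with Itm2a alone.

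The nearest neighbours were the Rag-expressing double positives of the same mice. Only the 3 OT2 mice held at least 5 cells of each class, so the 2 classes were compared there, with a term for the mouse. The split between them was itself made on Rag UMIs of the same cells, so genes that vary together with the Rag genes from cell to cell follow from the rule. The counts past the threshold and the sizes below are a description, from which nothing further is read and for which no gene's p-value is given. Of 1299 genes tested with edgeR's quasi-likelihood test, 29 (2.23%) passed an adjusted p of 0.05, with 14 higher in Rag-negative cells (1.08%) and 15 lower (1.15%), and 139 had an unadjusted p under 0.05. The count was 12 without the OT2 NegSelected mouse, 18 without OT2 PosSelected and 49 without OT2 NoSelection, and 4 with DESeq2.

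Itm2a, Cd5 and Cd2 were among the 14 higher genes. Itm2a (chrX:107397195-107403360, GRCm38) was at 83.1, 1948 and 1846 CPM in the Rag-negative cells of OT2 NoSelection, PosSelected and NegSelected, and at 26, 260 and 220 CPM in the Rag-expressing cells. Each mouse was higher in its Rag-negative cells, and the fitted log2 fold change was 2.91 (SE 0.43), although the NoSelection value is a single UMI. Cd5 (chr19:10718107-10739026) was at 166, 1024 and 1048 CPM against 51.9, 260 and 367 CPM, a log2 fold change of 1.67 (SE 0.41). Cd2, a costimulatory adhesion receptor, was at 83.1, 750 and 686 CPM against 0, 260 and 196 CPM, a log2 fold change of 1.88 (SE 0.48). Again every mouse had the higher level in its Rag-negative cells, although the NoSelection values are 2 UMIs for Cd5 and 1 UMI for Cd2.

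Tox, Id3 and Maml2, which act on transcription, were also in the higher set. Tox, an HMG-box factor needed for CD4 lineage development, was at 1163, 1327 and 1772 CPM against 182, 781 and 831 CPM, a log2 fold change of 1.40 (SE 0.34). Id3, an inhibitor of E proteins that is induced by receptor signals, was at 83.1, 822 and 1058 CPM against 182, 86.8 and 220 CPM, a log2 fold change of 1.74 (SE 0.45). Id3 was lower in the Rag-negative cells of the NoSelection mouse, from 1 UMI, and higher in the other 2 mice. Maml2, a Notch coactivator, was at 332, 289 and 427 CPM against 64.9, 0 and 97.8 CPM, a log2 fold change of 2.33 (SE 0.56). The other genes of the higher set included Shisa5 at 415, 736 and 455 CPM against 51.9, 0 and 147 CPM, and the actin-binding Tmsb10 at 3656, 9652 and 7496 CPM against 844, 1389 and 3594 CPM. Il7r, the interleukin-7 receptor chain, had 2, 14 and 20 UMIs in the Rag-negative cells and 0 in all Rag-expressing cells, but did not pass.

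The lower set included 5 of the 8 testable genes listed for the preselection stage, as given below. Ly6d (chr15:74762056-74763567), a GPI-anchored surface protein, was at 166, 43.3 and 55.7 CPM in the Rag-negative cells against 1194, 1302 and 416 CPM, a log2 fold change of -3.55 (SE 0.46). Dntt (chr19:41029275-41059525) was at 415, 303 and 371 CPM against 1441, 1736 and 1638 CPM, a log2 fold change of -2.18 (SE 0.33). Ets2, an ETS-family factor, was at 83.1, 188 and 204 CPM against 753, 1562 and 513 CPM, a log2 fold change of -2.18 (SE 0.40). These 3 genes were lower in the Rag-negative cells of each of the 3 mice, although the Rag-negative values of Ly6d and the NoSelection value of Ets2 rest on few UMIs. Rmnd5a, a ubiquitin ligase subunit, was at 665, 86.6 and 130 CPM against 857, 347 and 758 CPM, and Endou was at 83.1, 0 and 37.1 CPM against 350, 260 and 269 CPM. Arpp21 (chr9:112065091-112236288) did not follow them: it was at 2908, 303 and 408 CPM against 1389, 607 and 1320 CPM, higher in the Rag-negative cells of the NoSelection mouse and lower in those of the other 2, with a log2 fold change of -0.48 (SE 0.36).

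Taken by list, 8 of 11 preselection genes could be tested, all 8 had a fold change below 0, 5 were past the threshold as lower, and the median log2 fold change was -1.46 against 0.02 over all genes. Of the 15 post-selection genes, 12 could be tested, 11 were above 0, 4 were past the threshold as higher (Itm2a, Cd5, Cd2 and Id3), and the median was 1.40. Cd28 and Lmo4 lay above 0 without passing, at 0.27 and 0.21. Genes of the receptor complex and its proximal kinases and adaptors were nearer to the middle: 11 of 12 were tested, the median was 0.14, and Cd247, the zeta chain, was the 1 that passed, at 2576, 880 and 1206 CPM against 844, 347 and 636 CPM. The coreceptor transcripts Cd8a and Cd8b1 passed as lower, with log2 fold changes of -1.10 (SE 0.30) and -1.07 (SE 0.30).

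Promoter sequence upstream of the start is shown for the 2 receptor-induced genes and the preselection gene in the RefSeq table (GRCm38.p6) that carried the contrast, since E proteins and their inhibitor Id3 act through E-box motifs. The table had 1 entry for each of these 3 genes. The 250 bases before the start were searched on both strands for 3 motifs, and matches are in capitals. They were the palindrome CAGCTG, then the motif CAGGTG with its reverse complement CACCTG, and the Runx motif TGTGGT with its reverse complement ACCACA. No matches overlapped in these 3 sequences. Itm2a lies at chrX:107403361-107403610 on the minus strand, Cd5 at chr19:10738975-10739224 on the minus strand and Dntt at chr19:41029025-41029274 on the plus strand. The Cd5 window overlaps the gene span given above, chr19:10718107-10739026, so part of the window lies inside that span.
Itm2a: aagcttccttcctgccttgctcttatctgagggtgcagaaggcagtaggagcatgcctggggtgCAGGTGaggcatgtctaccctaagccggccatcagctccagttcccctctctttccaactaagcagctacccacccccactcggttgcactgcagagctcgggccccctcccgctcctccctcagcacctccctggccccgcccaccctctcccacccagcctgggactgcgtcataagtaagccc
Cd5: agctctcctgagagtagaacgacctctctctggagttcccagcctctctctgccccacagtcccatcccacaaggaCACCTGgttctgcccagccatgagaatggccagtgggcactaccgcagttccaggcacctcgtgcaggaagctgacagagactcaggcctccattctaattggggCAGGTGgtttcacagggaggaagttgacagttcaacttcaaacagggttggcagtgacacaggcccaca
Dntt: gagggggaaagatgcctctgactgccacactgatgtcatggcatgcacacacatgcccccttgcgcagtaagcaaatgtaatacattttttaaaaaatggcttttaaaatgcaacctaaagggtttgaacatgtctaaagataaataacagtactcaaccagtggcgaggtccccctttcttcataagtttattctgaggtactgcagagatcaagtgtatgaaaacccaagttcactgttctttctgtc
Itm2a held 1 match to CAGGTG or its reverse, Cd5 held 2, and Dntt held none of the 3 motifs in this window. Of 32851 promoters of the same length in the table, 17.2% held CAGGTG, 13% CAGCTG and 14.0% TGTGGT on either strand. A match is a description of the letters and not of binding.

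Surface proteins gave a second readout of the same cells. The median v of CD5 was 8.84, 9.20 and 9.13 on Rag-negative double positives of OT1 NoSelection, PosSelected and NegSelected, and 5.40, 8.49 and 8.69 in OT2. On Rag-expressing cells of the OT2 mice it was 5.37, 7.95 and 7.96, so CD5 was about equally low on both classes in the NoSelection mouse. The median v of CD2 was 4.33, 6.17 and 6.14 on OT2 Rag-negative cells against 3.79, 5.83 and 5.82, and that of TCRB was 2.71, 3.27 and 3.22 against 2.99, 2.61 and 2.66. By the median, TCRB was lower on the Rag-negative cells of the NoSelection mouse and higher on those of the other 2. By summed counts, which the fit below uses, it was higher in all 3, at 2738, 2873 and 2589 against 1837, 1130 and 1334 per 1000000 antibody counts. Of 113 antibodies other than CD4 and CD8A, 0 (0%) passed edgeR's quasi-likelihood test with Benjamini-Hochberg adjustment in the 3 mice, and 10 had an unadjusted p under 0.05. CD5 had a log2 fold change of 0.62 (SE 0.14), CD2 of 0.76 (SE 0.16) and TCRB of 0.84 (SE 0.20). Without the OT2 NoSelection mouse 5 antibodies passed, among them TCRB at 1.00 and TCRVA2 at 0.87, the chain of the transgenic receptor used in the sort.

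**Figure D3:**
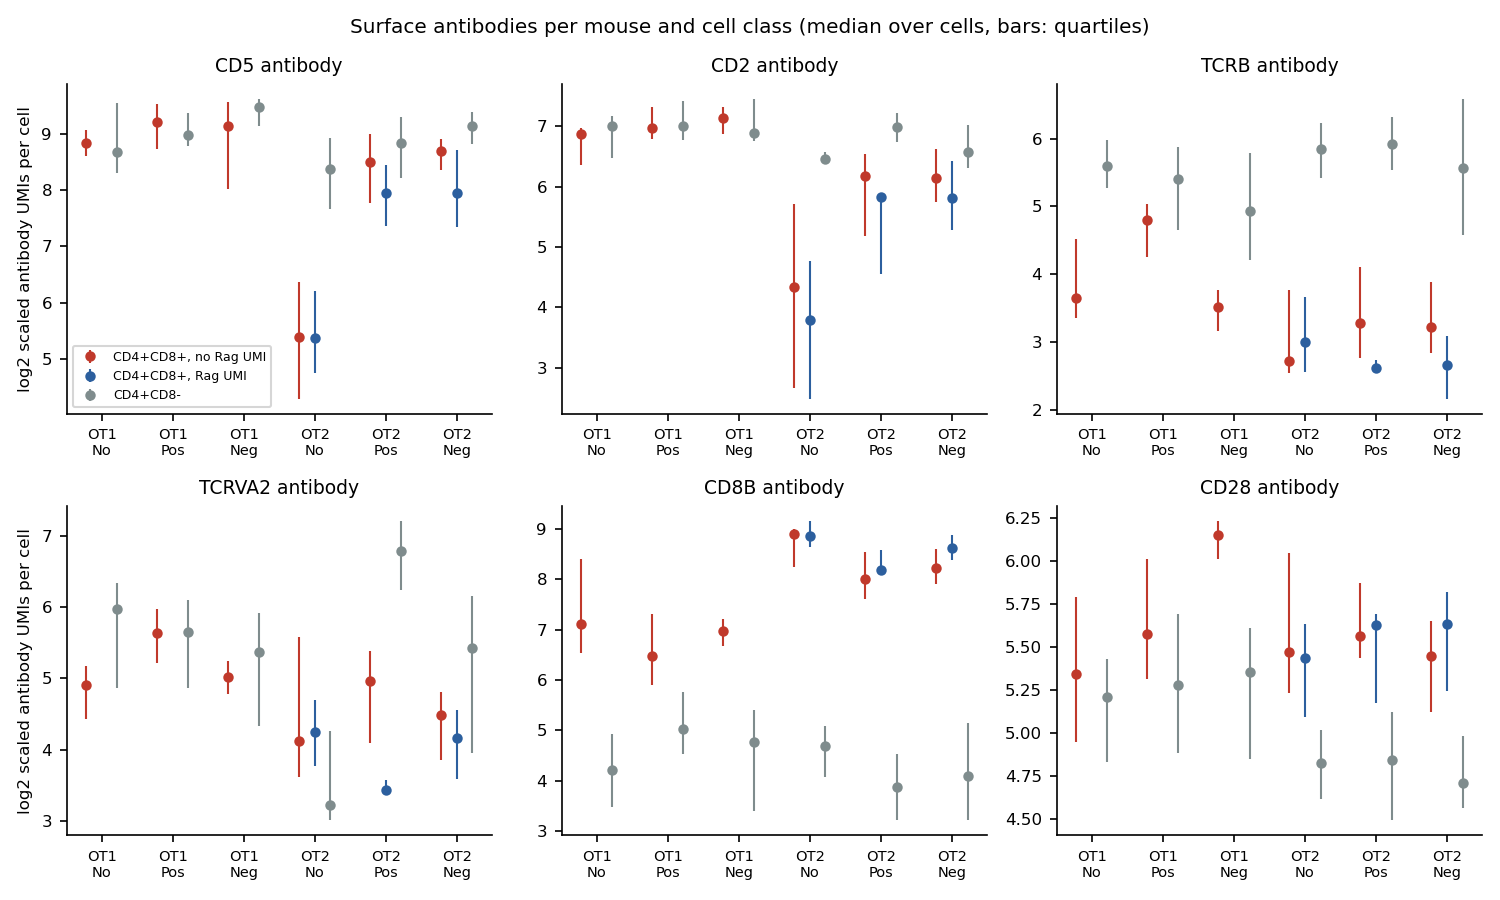
Median and quartiles of v (log2 scaled antibody count, vertical axis) for CD5, CD2, TCRB, TCRVA2, CD8B and CD28 in each mouse and cell class. CD5 on the Rag-negative double positives of OT2 NoSelection, with a median of 5.40, sits apart from the other 5 mice, which lie between 8.49 and 9.20.

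CD4+CD8- cells, the stage that follows for cells that keep CD4, were present in all 6 mice and were compared with the Rag-negative double positives of the same mouse. They numbered 14, 44 and 17 in OT1 NoSelection, PosSelected and NegSelected and 7, 189 and 39 in OT2. OT1 is a class I receptor, and whether the OT1 cells of this class would keep CD4 was not tested. Of 2010 genes tested, 205 (10.2%) passed edgeR's quasi-likelihood test with an adjusted p under 0.05, 74 higher (3.68%) and 131 lower (6.52%) in the Rag-negative double positives, and the median log2 fold change of all genes was 0.04. CD8A antibody separated these classes by the rule, and Cd4, Cd8a and Cd8b1 were left out of the test. The count was 73 without OT2 NegSelected, 88 without OT2 PosSelected and 120 without OT1 NoSelection.

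Preselection genes were at higher levels in the double positives. Arpp21 was at 148, 35.7 and 75.4 CPM in OT1 NoSelection, PosSelected and NegSelected and 2908, 303 and 408 CPM in OT2, against 15.2, 11.5 and 13.8 CPM and 32.1, 10.6 and 14.1 CPM in CD4+CD8- cells. The double positives were higher in 6 of 6 mice, with a log2 fold change of 4.32 (SE 0.41, adjusted p = 1.69e-08 by edgeR). Dntt was at 260, 71.5 and 113 CPM and 415, 303 and 371 CPM against 0, 57.4 and 27.7 CPM and 0, 31.8 and 7.03 CPM, again higher in 6 of 6 mice, with a log2 fold change of 2.91 (SE 0.47, adjusted p = 0.000111 by edgeR). Of the 11 preselection genes 5 were tested, all 5 were above 0, 4 passed, and their median was 3.39.

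Ccr9, Myb, Themis, Satb1, Egr1 and Gata3 were also higher in the double positives. Ccr9, the receptor for the cortical and gut chemokine CCL25, was at 798, 1161 and 1056 CPM in OT1 and 748, 1717 and 1688 CPM in OT2, against 122, 758 and 456 CPM and 224, 215 and 281 CPM, a log2 fold change of 1.84 (SE 0.27, adjusted p = 2.49e-05 by edgeR) with 6 of 6 mice higher. Myb, a factor needed for double-positive survival, was at 167, 62.5 and 340 CPM and 332, 332 and 232 CPM against 60.8, 0 and 0 CPM and 64.1, 10.6 and 56.2 CPM, a log2 fold change of 3.19 (SE 0.50, adjusted p = 8.12e-05 by edgeR). Themis, an adaptor that sets the response of double positives to weak ligands, was higher by 1.37 (SE 0.28, adjusted p = 0.00119 by edgeR). The organizer Satb1 was higher by 1.01 (SE 0.26, adjusted p = 0.0105 by edgeR), Egr1 by 0.91 (SE 0.25, adjusted p = 0.0184 by edgeR) and Gata3, which directs the CD4 lineage, by 1.29 (SE 0.37, adjusted p = 0.0217 by edgeR). The last 3 calls were less stable than those of Ccr9, Myb and Themis, which held in every alternative that tested them. Satb1 was lost in 3 of 17 alternatives, including without OT2 NegSelected or OT1 NoSelection. Egr1 was lost in 7 of 16, including without OT2 NegSelected, OT1 PosSelected or OT1 NoSelection. Gata3 was lost in 5 of 13, including without OT2 PosSelected, OT2 NegSelected or OT1 NoSelection.

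Proliferation genes also passed, but from few mice. Top2a, the mitotic topoisomerase, had 14, 20 and 0 UMIs in OT1 NoSelection, PosSelected and NegSelected and 0, 0 and 1 in OT2. The linker histone gene H1f5 had 58, 29 and 0 UMIs in the OT1 mice and 0, 2 and 5 in the OT2 mice, against 13 in all CD4+CD8- cells. The UMIs of both genes thus came mainly from OT1 NoSelection and PosSelected, and the Top2a call was lost in 4 of 11 alternatives, including without OT1 NegSelected. All 3 cell cycle genes that could be tested of 12 listed passed as higher, with a median of 1.22.

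Maturation genes were lower in the double positives. Of 12 listed genes of maturation and egress, 11 were tested, all 11 had fold changes below 0, 10 passed, and the median was -1.60. H2-K1, a classical MHC class I gene, was at 278, 357 and 113 CPM in OT1 and 831, 404 and 241 CPM in OT2, against 2098, 1028 and 885 CPM and 1475, 2243 and 1722 CPM, lower in 6 of 6 mice with a log2 fold change of -2.40 (SE 0.25, adjusted p = 8.33e-08 by edgeR). Class I genes share sequence, and how the counting divided reads among H2-K1, H2-Q2 (log2 fold change 4.23) and H2-Q7 (log2 fold change -2.60) is not given in the sources used here, so these values are uncertain. Ccr7, the receptor that guides cells to the medulla, was at 130, 152 and 75.4 CPM and 166, 188 and 18.6 CPM against 684, 350 and 539 CPM and 577, 577 and 555 CPM, a log2 fold change of -2.32 (SE 0.31, adjusted p = 8.17e-06 by edgeR), and the classes did not overlap over the 6 mice. The egress genes Klf2 and S1pr1 had log2 fold changes of -1.73 (SE 0.33, adjusted p = 0.000839 by edgeR) and -2.53 (SE 0.49, adjusted p = 0.00084 by edgeR). Igfbp4 had 7 UMIs in OT2 NoSelection and 0 in the double positives of the other 5 mice, against 14 to 124 UMIs per mouse in CD4+CD8- cells.

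Some interferon-response genes and genes listed for deletion and agonist selection passed as lower. Of 10 interferon genes 5 were tested, all 5 were below 0 and 3 passed, with a median of -1.46. Ifi27l2a, an interferon-induced gene, was at 148, 179 and 37.7 CPM in OT1 and 0, 144 and 46.4 CPM in OT2 double positives, against 806, 212 and 429 CPM and 192, 1097 and 710 CPM. It was lower in 6 of 6 mice, at -2.49 on the log2 scale (SE 0.35, adjusted p = 1.55e-05 by edgeR). Of 14 genes of deletion and agonist selection 5 were tested, all 5 were below 0 and 2 passed, namely Tnfrsf18, which encodes GITR, at -1.71, and Tnfrsf9, which encodes 4-1BB, with 1 UMI in the double positives of OT1 NoSelection and 0 in those of the other 5 mice, against 108 UMIs in all CD4+CD8- cells. The gap differed by host. All 14 summed to 909, 697 and 943 CPM in double positives of OT1 NoSelection, PosSelected and NegSelected, against 1322, 781 and 2365 CPM. In OT2 the sums were 582, 592 and 909 CPM against 353, 401 and 3029 CPM. The list was thus higher in the double positives of OT2 NoSelection and PosSelected, and the widest gaps were in the NegSelected hosts.

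Of the 5 markers 4 could be tested in this comparison, and 0 of the 4 passed. Itm2a was at 408, 1956 and 2452 CPM in OT1 and 83.1, 1948 and 1846 CPM in OT2 double positives, against 1079, 1407 and 788 CPM and 64.1, 743 and 829 CPM in CD4+CD8- cells. It was lower in the double positives of OT1 NoSelection and higher in those of the other 5 mice, with a log2 fold change of 0.63 (SE 0.27, adjusted p = 0.169 by edgeR). Cd5 lay at 0.72 (adjusted p = 0.116 by edgeR), Cd28 at 0.64 (adjusted p = 0.0734 by edgeR) and Lmo4 at 0.86 (adjusted p = 0.151 by edgeR), and Chl1 was too low to test. A p above the threshold does not show that the levels were equal.

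**Figure D4:**
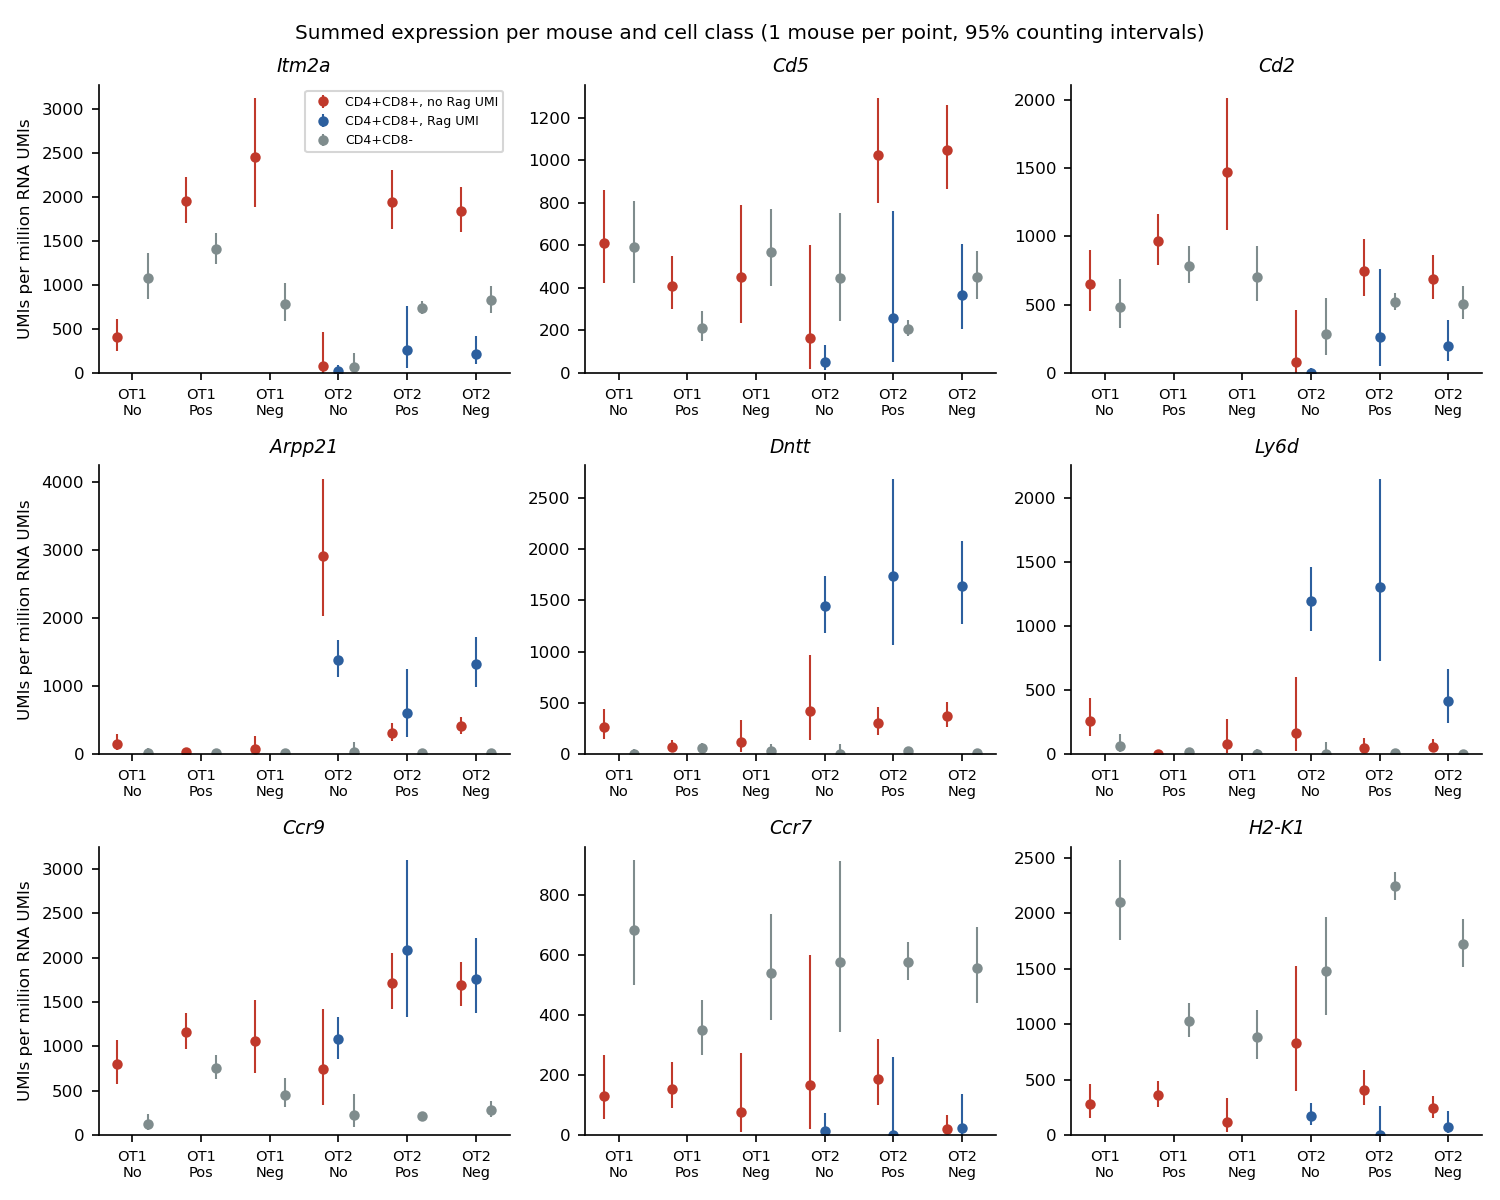
Level of 9 genes in CPM (vertical axes) for each mouse in Rag-negative double positives, Rag-expressing double positives (OT2 mice) and CD4+CD8- cells, with 95% exact Poisson intervals that cover counting error only. Arpp21, Dntt and Ly6d sit high in Rag-expressing cells, Ccr7 and H2-K1 in CD4+CD8- cells, and Itm2a in both the Rag-negative double positives and the CD4+CD8- cells of most mice.

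**Figure D5:**
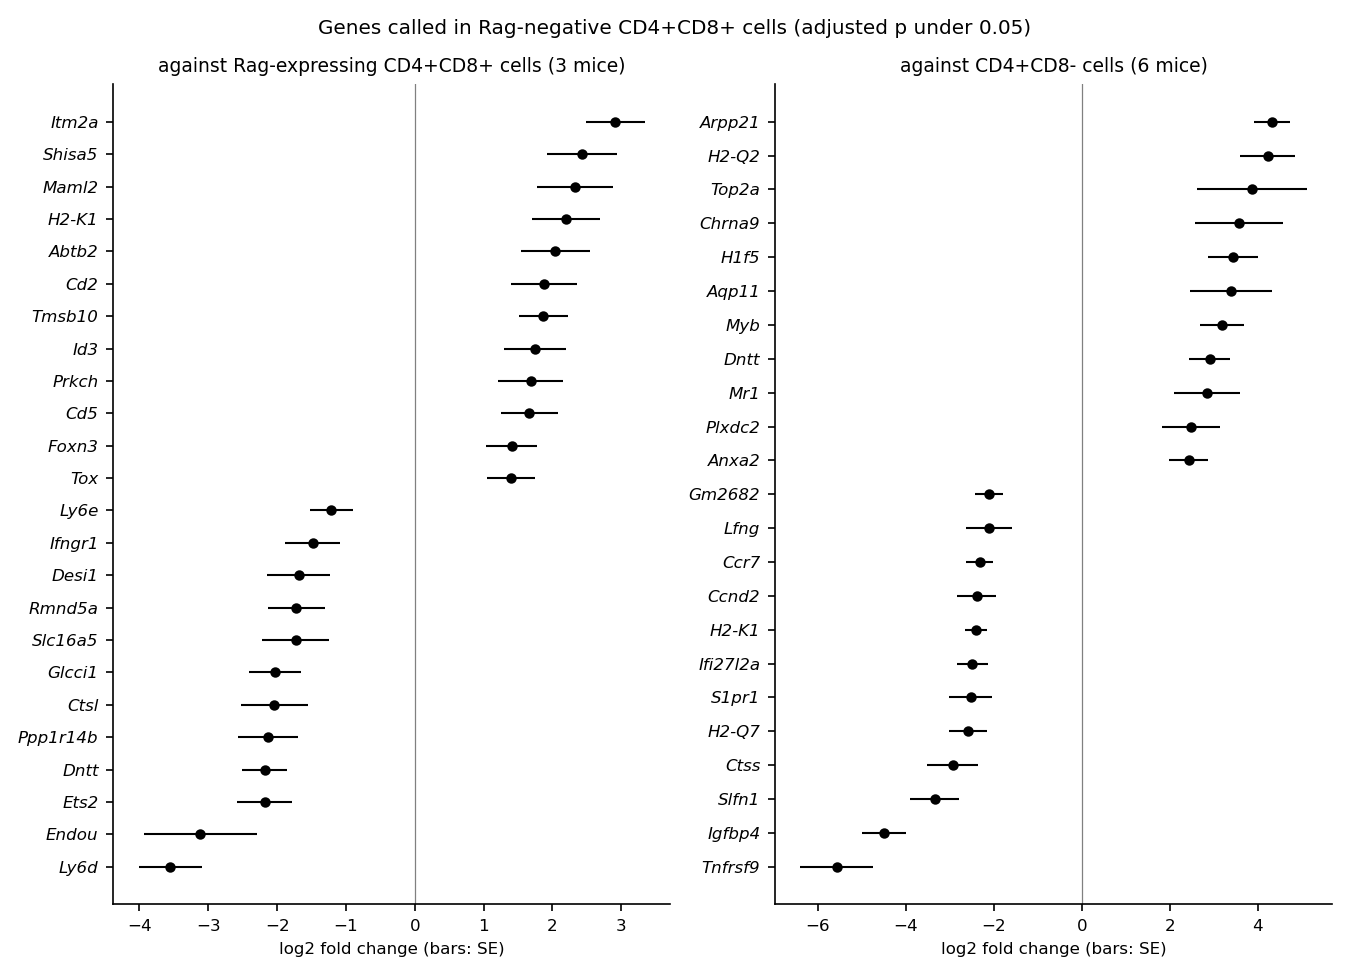
Log2 fold changes (horizontal axis, bars ± SE) of genes among those with the largest called differences between Rag-negative double positives and Rag-expressing double positives (left, 3 OT2 mice) or CD4+CD8- cells (right, 6 mice). Itm2a at 2.91 is among the highest genes on the left, Ly6d at -3.55 is the lowest there, and Arpp21 at 4.32 is among the highest on the right.

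Surface proteins also differed between Rag-negative double positives and CD4+CD8- cells, with 23 of 113 antibodies (20.4%) past the threshold in edgeR's quasi-likelihood test, 9 higher and 14 lower. This comparison was added after the data were seen. CD8B, which pairs with the gated CD8A, was higher by 3.16 (SE 0.38). The median v of TCRB was 3.65, 4.79 and 3.52 on OT1 and 2.71, 3.27 and 3.22 on OT2 double positives, against 5.60, 5.40 and 4.93 and 5.84, 5.92 and 5.56 on CD4+CD8- cells. All 6 mice were lower, and the log2 fold change was -1.89 (SE 0.26, adjusted p = 0.0037 by edgeR). CD3 was lower by a log2 fold change of -0.78 (adjusted p = 0.0372 by edgeR), while CD24, a marker of immature thymocytes, was higher by 0.74 (adjusted p = 0.0183 by edgeR, a call lost without OT2 PosSelected, OT2 NoSelection, OT1 NegSelected or OT1 NoSelection) and the interleukin-4 receptor chain IL4RA.CD124 by 0.95 (adjusted p = 0.0130 by edgeR). An isotype control, Mouse.IgG2bk, passed as well, at 0.51 (adjusted p = 0.0130 by edgeR), a tag with no target on these cells. Without OT2 PosSelected 11 antibodies passed.

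The hosts were compared among the Rag-negative double positives of all 6 mice with terms for receptor and host. This additive fit has 2 residual degrees of freedom and assumes the same host difference for both receptors. It also joins in a single NoSelection level the b2m KO host of OT1 and the OT2 host labelled both MHCII KO and b2m KO. Receptor and host genotype cannot be told apart there. Between PosSelected and NoSelection hosts 2 of 1432 genes (0.14%) passed edgeR's quasi-likelihood test, and 67 had an unadjusted p under 0.05. Itm2a was higher in the PosSelected host by 2.65 (SE 0.38, adjusted p = 0.0146 by edgeR) and Arpp21 lower, at -2.84 (SE 0.49, adjusted p = 0.048 by edgeR). Within receptors the Itm2a level in the PosSelected host was 4.79 times that in NoSelection for OT1 (counting interval 3.09 to 7.80) and 23.4 times for OT2 (4.14 to 933, from 135 and 1 UMIs). For Arpp21 the ratio was 0.241 (0.053 to 0.898) in OT1 and 0.104 (0.0576 to 0.184) in OT2. The receptors were less alike for some other genes. Cd5 was at 0.671 (0.420 to 1.08) in OT1 and 6.16 (1.64 to 51.9, from 71 and 2 UMIs) in OT2. Themis was at 1.15 (0.759 to 1.79) in OT1 and 0.268 (0.192 to 0.376) in OT2. Without the 1 double positive of very high UMI count the fitted differences of Itm2a and Arpp21 were nearly as large, at 2.66 and -2.77, but neither passed (Itm2a adjusted p = 0.0734, Arpp21 adjusted p = 0.119 with edgeR). The Itm2a call was also lost without OT1 NegSelected, at 2.98 (adjusted p = 0.0875 by edgeR). The Arpp21 call held in 5 of 12 alternatives, and of the mice it was kept only on leaving out OT1 NoSelection. Without OT2 NoSelection Arpp21 was at -1.86 (adjusted p = 0.767 by edgeR) and without OT2 PosSelected at -2.23 (adjusted p = 1.00 by edgeR). The number of genes that passed was 0 without OT1 NegSelected, 9 without OT2 NoSelection and 59 without OT1 NoSelection.

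Between NegSelected and NoSelection hosts 1 of 1432 genes (0.0698%) passed edgeR's test, again Itm2a, at 2.75 (SE 0.39, adjusted p = 0.0124), and 61 had an unadjusted p under 0.05. Without the cell of very high UMI count the difference was 2.72 and did not pass (adjusted p = 0.0721 by edgeR), and the count was 0 without OT1 NegSelected, 3 without OT2 NegSelected, 11 without OT2 NoSelection and 41 without OT1 NoSelection. Arpp21 was at -2.41 (SE 0.50, adjusted p = 0.167 by edgeR). Both comparisons share the NoSelection mice, and the Rag-negative cells of OT2 NoSelection rest on 12034 UMIs.

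Between NegSelected hosts, which carry ovalbumin, and PosSelected hosts, 0 of 1432 genes (0%) passed edgeR's quasi-likelihood test, 0 with DESeq2 and 0 with limma-voom, and 34 had an unadjusted p under 0.05. The count was 1 without OT1 NoSelection and 3 without OT2 NoSelection. Itm2a in the NegSelected host was 1.25 times its PosSelected level for OT1 (counting interval 0.935 to 1.66) and 0.948 times for OT2 (0.758 to 1.19). For Cd5 the ratio was 1.10 (0.531 to 2.11) in OT1 and 1.02 (0.754 to 1.40) in OT2, so both intervals include 1. Lmo4 was 2.77 times higher in OT1 (1.52 to 4.96) and 1.24 times in OT2 (0.609 to 2.63). Chl1 had 3 UMIs in OT1 PosSelected and 11 in OT1 NegSelected, a ratio of 15.5 (4.09 to 86.4), and 6 and 9 UMIs in OT2, a ratio of 0.965 (0.307 to 3.29).

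Of 14 genes listed as induced early by the receptor, the summed level was 2264, 2537 and 2263 CPM in OT1 NoSelection, PosSelected and NegSelected and 1413, 2424 and 3451 CPM in OT2, with Tox and Egr1 among them. Several others had few UMIs. Cd69, the early activation receptor, had 10, 23 and 2 UMIs in OT1 NoSelection, PosSelected and NegSelected and 0, 8 and 16 in OT2. Nr4a1, the nuclear receptor Nur77 that reports receptor signals, had 8, 12 and 4 UMIs in OT1 and 0, 3 and 17 in OT2, and its NegSelected to PosSelected ratio in OT2 was 3.64 (counting interval 1.05 to 19.4). Pdcd1, which encodes PD-1, had 3, 5 and 2 UMIs in OT1 and 0 in every OT2 mouse, and Gadd45b had 1, 2 and 0 in OT1 and 0 in every OT2 mouse. Ikzf2, which encodes Helios, was at 297, 161 and 340 CPM in OT1 and 83.1, 245 and 399 CPM in OT2. Of the lineage factors, Zbtb7b had 0, 5 and 0 UMIs in OT1 and 0, 3 and 1 in OT2, and Runx3 had 3, 10 and 3 in OT1 and 1, 4 and 0 in OT2. With sums of this size, differences in these genes were not detectable at this depth unless several-fold.

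More genes passed between the receptors than between the hosts. The receptor comparison has more mice on each side, so these counts do not rank the differences. Between OT2 and OT1 Rag-negative double positives 27 of 1432 genes (1.89%) passed edgeR's quasi-likelihood test, 13 higher and 14 lower in OT2, and 257 had an unadjusted p under 0.05. The count was 8 without OT2 NegSelected, 10 without OT1 NegSelected, 101 without OT1 NoSelection and 110 without OT2 NoSelection. Some of these differences went with the donor line. Xist, the X-inactivation RNA, had 0 UMIs in every OT1 mouse and 10, 28 and 68 in OT2, although all 6 mice were labelled female, and whether that label describes the donor or the host is not given in the sources used here. Rnf43, a ubiquitin ligase of Wnt receptors, had 0, 1 and 0 UMIs in OT1 and 13, 53 and 115 in OT2. Receptor, donor line and any difference in donor sex cannot be told apart here. In the NoSelection hosts the receptor also cannot be told apart from the host genotype, which was b2m KO for OT1 and unclear by label for OT2.

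Arpp21 was higher in OT2 by 3.47 (SE 0.45, adjusted p = 0.000795 by edgeR) and the levels of the receptors did not overlap, at 35.7 to 148 CPM in OT1 and 303 to 2908 CPM in OT2. Themis was at 612, 706 and 453 CPM in OT1 and 5069, 1356 and 1679 CPM in OT2, higher by 1.80 (SE 0.33, adjusted p = 0.0157 by edgeR), a call lost without OT2 NegSelected or OT1 NegSelected. Bcl2, the survival factor that rises with maturation, was at 148, 313 and 566 CPM in OT1 and 83.1, 57.7 and 158 CPM in OT2, a log2 fold change of -1.99 (SE 0.44, adjusted p = 0.0385 by edgeR), with OT1 NoSelection inside the OT2 range. The Bcl2 call was lost in 7 of 11 alternatives, among them leaving out OT2 PosSelected, OT2 NegSelected, OT1 PosSelected or OT1 NegSelected, and Bcl2 was at -0.59 with thresholds 0.5 lower. Tmsb10 was at 12116, 24384 and 17768 CPM in OT1 and lower in all OT2 mice, at -1.48 (SE 0.18, adjusted p = 0.000401 by edgeR), a call lost in 5 of 12 alternatives, including each of those that left out OT2 PosSelected, OT2 NegSelected, OT1 PosSelected or OT1 NegSelected. Ribosomal protein genes, looked at after their values were seen, were 7 of the 14 genes that passed as lower in OT2. These 7 were among 77 such genes tested, where 14 of all 1432 genes passed as lower. All 77 were below 0, with a median of -0.58 against -0.01 over all genes. The nuclear RNAs Malat1 and Rn7sk passed as higher, at 1.20 and 1.17. Itm2a did not pass, at -0.37 (adjusted p = 0.492 by edgeR), and the coreceptor Cd8a missed the threshold at 1.22 (adjusted p = 0.0536 by edgeR). Of the 11 preselection genes 6 were tested, all 6 were above 0, 1 passed, and the median was 1.92 against -0.01 over all genes. Median depth per cell was also lower in OT2, at 1728.5 to 2654.5 UMIs against 3064 to 4825 in OT1, and the part of depth and of RNA quality in these differences was not tested.

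For antibodies, each of the 4 host and receptor comparisons had 0 of 111 (0%) past the threshold of edgeR's quasi-likelihood test, with 4 (PosSelected against NoSelection), 1 (NegSelected against PosSelected), 5 (NegSelected against NoSelection) and 20 (OT2 against OT1) at an unadjusted p under 0.05. ITA6.CD49F came nearest between receptors, at 1.4996 higher in OT2 (SE 0.17, adjusted p = 0.0576 by edgeR). Without OT2 NoSelection 4 antibodies passed between receptors. Median v of CD28 was 5.35 to 6.15 in OT1 and 5.45 to 5.56 in OT2, and that of CD69 was 4.32 to 4.63 in OT1 and 4.16 to 4.35 in OT2. The ranges of both proteins overlapped between receptors.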

How the data were processed

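Transcripts and surface proteins were measured in single sorted thymocytes of 6 mice. The authors deposited raw UMI counts per gene (55494 genes) and per antibody (180 names, 127 with counts) for 1331 cells, with a hashtag number that assigns each cell to a mouse. The mm10 build and the programs Seurat and Cell Ranger 8.0.1 are named per the submitters' processing notes. The fewest genes in a deposited cell were 506. Upstream filters and doublet removal are not given in the sources used here, and no doublet caller was run. The receptor sequence libraries were not analysed here.

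Counts were summed per mouse and cell class, keeping classes of at least 5 cells, and tested in edgeR 4.0.16 (R 4.3.3) with filterByExpr, TMM, the quasi-likelihood test and Benjamini-Hochberg adjustment at 0.05, after a check on simulated counts. Classes within a mouse were compared with the mouse as a block, and hosts and receptors in an additive fit. Genes that set a split were left out of its tests. Because 1 mouse stands for each receptor and host, p-values measure only the spread between these samples. Alternatives were DESeq2 1.42.0, limma 3.58.1 voom, RLE factors, no low-count filter and no mouse block. Others were thresholds shifted by 0.5, thinning to 2000 or 1000 UMIs, at least 10 cells per class and leaving out each mouse. Cells over the 95th percentile of UMIs of their own mouse were also removed, and antibody counts capped at the 99th percentile. Shifting the thresholds down for gene counts, thinning to 1000 UMIs and the antibody comparison with CD4+CD8- cells were added after the data were seen. Intervals are 95% exact (Clopper-Pearson or Poisson), a count of 0 allows up to 3 counts, and both cover counting error only. Scripts used Python 3.11.15, numpy 2.4.6, scipy 1.17.1 and pandas 2.3.3.

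Named genes were 32 chosen genes, up to 12 called genes in each direction with a mean of at least 50 CPM, or the 6 of lowest p where fewer than 5 were called, and examples from 21 lists of 162 genes. Pdcd1, Gadd45b, Zbtb7b and Runx3 belong to the chosen genes. The ribosomal protein genes were grouped after their values were seen. Members and lists were chosen with earlier results of these data known. Values of some genes that met this rule are not reported here.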

Additional observations from a re-analysis of the deposited data

How the results depend on the processing

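The 6 mice, the small classes and the antibody gate limit these results. Against Rag-expressing cells the 29 genes became 4 with DESeq2, 46 with limma-voom, 14 with RLE size factors, 1 with no filter on low counts, 0 with thresholds 0.5 higher, 19 with cells above the 95th UMI percentile removed, 8 when thinned to 1000 UMIs, and 12 to 49 when each mouse was left out. Itm2a kept its call in 10 of the 11 alternatives that tested it, Ly6d in 11 of 12, Dntt in 10 of 12 and Cd5 in 6 of 12. Against CD4+CD8- cells the 205 genes became 98 with thresholds 0.5 higher, 318 with thresholds 0.5 lower, 125 and 90 when thinned to 2000 and 1000 UMIs, 87 with no mouse block, and 73 to 235 when each mouse was left out.

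For PosSelected against NoSelection the 2 genes became 0 with no filter and 0 without cells of high UMIs, 28 with thresholds 0.5 lower, and 0 to 59 when each mouse was left out. For NegSelected against PosSelected the 0 genes became 9 with thresholds 0.5 lower and 0 to 3 when each mouse was left out. For NegSelected against NoSelection the 1 gene became 2 with limma-voom, 0 with no filter, 0 without cells of high UMIs, 10 with thresholds 0.5 lower and 0 to 41 when each mouse was left out. For OT2 against OT1 the 27 genes became 83 with limma-voom, 8 with no filter, 223 with thresholds 0.5 lower and 8 to 110 when each mouse was left out, and Arpp21, Xist and Rnf43 kept their calls in all 12 alternatives. For antibodies, leaving out each mouse gave 0 to 5 against Rag-expressing cells, 11 to 23 against CD4+CD8- cells and 0 to 4 for OT2 against OT1, where limma-voom gave 2. The cause of these changes was not tested. Of the chosen genes and the genes and antibodies named by the rule, none that was called changed direction under an alternative. The direction of the other called genes was not checked.

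With thresholds 0.5 higher the cells numbered 3, 7 and 1 in OT1 NoSelection, PosSelected and NegSelected and 10 and 21 in OT2 PosSelected and NegSelected, and with thresholds 0.5 lower 26, 56 and 24 in the OT1 mice. Allowing 1 Rag UMI gave 11 cells in OT2 NoSelection and a share of 84.8% in OT2 NegSelected. Thinning to 2000 UMIs or requiring 10 cells per class could not be fitted against Rag-expressing cells, nor thresholds 0.5 higher for hosts and receptors. Cell classes were paired by mouse, but hosts and receptors could not be blocked by replicate number, since each of those groups is 1 mouse. Depth limits genes of a few UMIs per mouse, such as Cd69, Nr4a1, Pdcd1 and Chl1.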
